A study of Mus musculus with 14 samples.

Results

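The genes described here encode the proteasome. They were taken from the input RNA table as mouse genes whose symbol begins with Psma, Psmb, Psmc, Psmd, Psme, Psmf or Psmg followed by a number, with pseudogenes left out, and 49 of 14837 genes met that rule. Of these, 47 encode subunits, activators, an inhibitor or assembly factors. The other two, Psmc3ip and Psme3ip1, are named as proteins that interact with a member, are not subunits and are given apart. Psma8, a testis form of an alpha subunit, and Psme2b, a copy of Psme2, matched the rule in the RefSeq gene table but had no row in the input table and were not analysed here. Psmb8, Psmb9 and Psmb11 fell below the filter on low counts, which left 46 genes in the RNA comparison.

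The proteasome is the cell's main machine for degrading proteins that carry ubiquitin. Its 20S core is a barrel of alpha rings at the ends and beta rings in the middle, and the beta rings hold the proteolytic sites. A 19S regulatory particle of ATPases, other base subunits and a lid recognises ubiquitin, removes it and unfolds the substrate, while alternative activators (the PA28 subunits Psme1 to Psme3, and PA200, Psme4) can open the core without ubiquitin. Growing and differentiating muscle cells depend on this system for protein turnover, and its transcription is driven by Nfe2l1, which binds antioxidant response elements in the promoters of subunit genes.

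The study compared cultured mouse skeletal muscle stem cells (MuSCs) labelled as control with MuSCs labelled as Lin28a positive (Lin28a+), which the study sorted by a tdTomato reporter under Lin28a-CreERT2. Both groups were untreated and were grown on Matrigel in DMEM with 10% fetal bovine serum, so these are cultured cells and not cells taken directly from muscle. Each group had 2 input libraries of mRNA, 2 libraries precipitated with an m6A antibody (m6A-RIP) and 2 with an Igf2bp3 antibody (Igf2bp3-RIP), and Lin28a+ cells alone had 2 Lin28a-RIP libraries. Igf2bp3 is an RNA-binding protein that recognises m6A, and Lin28a is an RNA-binding protein of embryonic and stem cells. The age and number of the animals are not given in the sources used here, and the labels do not say whether the replicates came from separate cultures. The study's methods speak of biological replicates in general terms, with more per experiment than the 2 libraries of a group here. The p-values thus measure no more than the spread between these libraries, which may be technical. For part of the RNA results they are set by a bound from counting error instead, as given under the processing.

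The input libraries held 4842915 to 6220960 estimated counts, the m6A-RIP libraries 21350962 to 31830638 counts, the Igf2bp3-RIP libraries 9215355 to 34142094 and the Lin28a-RIP libraries 33908110 to 36610494. The Lin28a+ columns of the input table were headed with names of m6A libraries. Across 8063 genes their levels correlated with the m6A-RIP libraries of their own group at 0.515 to 0.520 (Pearson's r, genes not being independent), and the control inputs did so at 0.508 to 0.509, while the Lin28a+ and control inputs correlated with each other at 0.949. They were used as inputs of the Lin28a+ group. The myogenic markers were abundant, with summed levels of 9661 to 9864 normalised CPM (counts per 1000000 counts of the scaled library) in control and 11642 to 11761 in Lin28a+ inputs, whereas the 5 leukocyte markers with a row summed to at most 3.25 CPM and Pecam1, the only endothelial marker with a row, to at most 0.513 CPM. The 4 fibro-adipogenic markers with a row summed to 148.0 to 153.6 CPM in control and 76.86 to 76.99 in Lin28a+ inputs, most of it from Gsn, which fell, while Ly6a rose and Pdgfra was at most 0.2355 CPM in any library. The 4 pericyte or smooth muscle markers with a row summed to 5405 to 5443 CPM and 7426 to 7443 CPM, nearly all of it from Acta2, which myogenic cells also express and which rose with Pdgfrb, while Rgs5 fell from at most 2.435 CPM. Of 9 myogenic markers tested, 3 rose and 4 fell. Myog, which marks committed myoblasts, was 3.62-fold, Cdh15 1.70-fold and Pax7, which marks stem cells, 1.28-fold higher. Megf10 was at 0.216, Vcam1 at 0.262, Myf5 at 0.433 and Des at 0.695 of the control level. Of 6 proliferation genes 5 rose and Mki67 fell by 0.19, beside the 28.1% and 28.7% of all genes that rose and fell. These marker differences moved with the comparison in every result below, and their part in them was not tested. In bulk libraries, more cells of one state and more RNA per cell cannot be told apart.

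Most proteasome genes had more RNA in Lin28a+ MuSCs, by modest amounts. Of the 46 genes tested, 31 rose, beside 28.1% of all 11317 genes tested, and 2 fell, beside 28.7% of all genes (edgeR's quasi-likelihood test, Benjamini-Hochberg adjusted p under 0.05). The remaining 13 did not pass. With DESeq2 as the test 23 of 47 rose and 1 fell, beside 1545 and 1517 of all 12177 genes. The rises lost were those of Psma4, Psme1, Psme3, Psmd5, Psmd9, Psmg2, Psmg4 and Psmc3ip. The median difference of the 46 was 0.33 on the log2 scale and that of all genes 0.01. The rises were not evenly spread over the particle, as the plot of RNA differences by class shows.

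**Figure D1:**
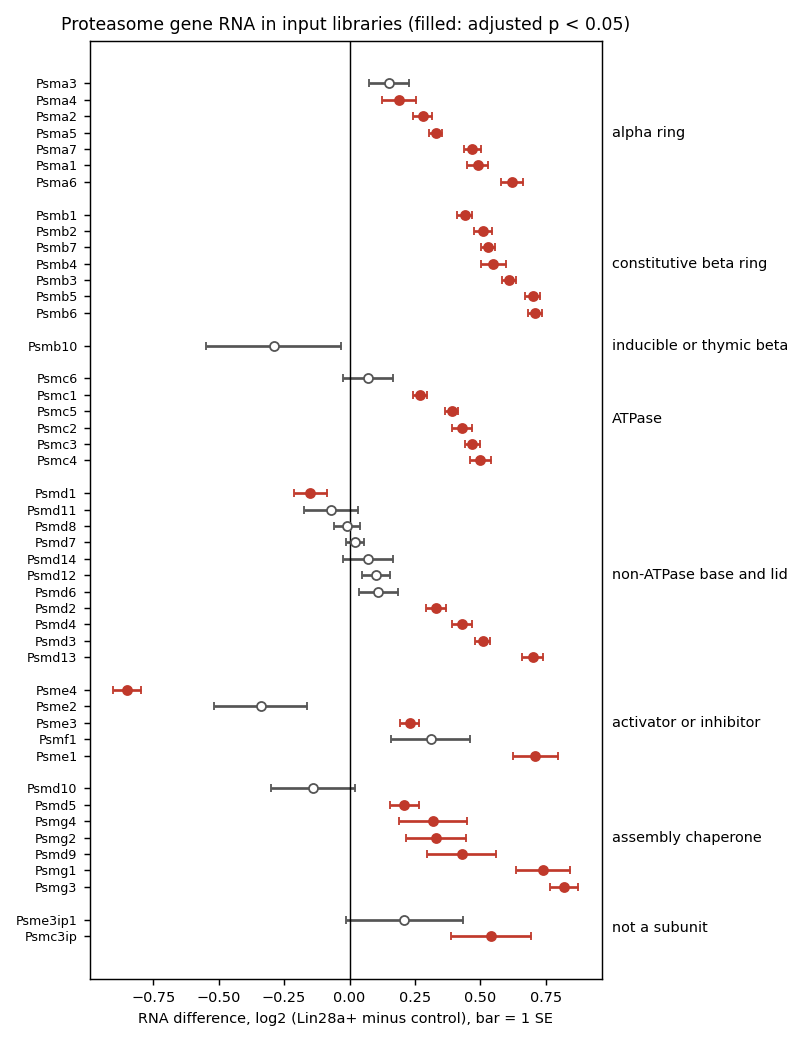
RNA difference between Lin28a+ and control MuSCs for the 46 proteasome genes tested, in log2 units on the horizontal axis, with genes grouped by role. Points are edgeR estimates from 2 libraries a group, bars are 1 standard error, and filled red points passed an adjusted p of 0.05. The constitutive beta ring lies wholly between 0.44 and 0.71, while 6 of 11 non-ATPase base and lid genes did not pass and Psme4 lies at -0.85.

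All 7 constitutive beta subunits rose, with a median of 0.55. Psmb6, which carries the caspase-like site, had the largest rise of the ring, with 168.1 and 169.9 CPM in the control libraries and 279.2 and 274.9 CPM in the Lin28a+ libraries. The groups were far apart, and the log2 difference was 0.71 ± 0.026 (SE, n = 2 per group, edgeR adjusted p = 1.86e-05). Psmb5, which carries the chymotrypsin-like site and is the target of proteasome inhibitors, went from 354.7 and 351.0 CPM to 584.3 and 564.2 CPM, a 1.63-fold rise. Psmb7, the trypsin-like subunit, went from 400.5 and 388.9 CPM to 573.8 and 563.6 CPM, a 1.44-fold rise. The smallest rise of the ring was that of Psmb1, a structural subunit without a site, at 229.4 and 223.1 against 309.3 and 304.0 CPM, or 0.44 ± 0.028 on the log2 scale. In each of these genes both Lin28a+ values lay above both control values. The share of all genes with such separated groups was not computed here, so this only describes the values. RefSeq lists pseudogene copies of Psmb5, Psmb6, Psmb7 and Psma5, and how reads shared with them were counted is not given in the sources used here.

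The alpha ring forms the gated ends of the core. Here 6 of 7 genes rose and the median was 0.33. Psma6 had 127.1 and 118.1 CPM in control libraries and 190.3 and 185.2 CPM in Lin28a+ libraries, which is 0.62 ± 0.042 on the log2 scale (edgeR adjusted p = 0.000117). Psma3, another alpha subunit, had 66.1 and 63.2 CPM against 70.0 and 73.0 CPM. Its Lin28a+ libraries lay above both controls, but the difference of 0.15 ± 0.076 did not pass (edgeR adjusted p = 0.0869). Psma4, at 0.19, passed with all libraries and not without control library 2.

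The inducible beta subunits replace the constitutive catalytic ones in the immunoproteasome of immune cells and of cells exposed to interferon, and Psmb11 does so in thymic epithelium. The levels of Psmb8, Psmb9 and Psmb11 were close to the limit of detection in these cells. Psmb8 (LMP7) had estimated counts of 5.14 and 5.00 in the control libraries and 0.571 and 0.286 in the Lin28a+ libraries. Psmb9 (LMP2) had 2.32 and 4.54 against 2.36 and 1.93, and Psmb11 had 4.74 and 5.25 against 7.73 and 3.63. The groups were apart only for Psmb8. With no filter on low counts, Psmb8 passed at -2.84 ± 0.758 (edgeR adjusted p = 0.0294), while Psmb9 (-0.56 ± 0.850, adjusted p = 0.643) and Psmb11 (0.48 ± 0.602, adjusted p = 0.565) did not. The deposited input values of many genes are whole multiples of a fraction, and those of Psmb8 become 36 and 35 against 4 and 2 when multiplied by 7. In a fit on such rescaled values, chosen after seeing the data, Psmb8 fell by 3.31 on the log2 scale (SE 0.318, edgeR adjusted p = 0.000579). Multiplying raises the counts that the fit assumes, which by itself can lower the SE and p. Whether the products are read counts is not known, so the smaller p is no further support. Psmb10 (MECL-1) was tested and had 6.64 and 6.41 CPM in controls and 5.28 and 5.23 CPM in Lin28a+ libraries. Its difference of -0.29 ± 0.257 did not pass (edgeR adjusted p = 0.341), nor did it with no filter (0.409) or DESeq2 (0.782). On the rescaled values it was -0.31 and passed (edgeR adjusted p = 0.0059), with the same limit as for Psmb8. So Psmb10, the inducible subunit above the filter, lay below its controls while Psmb5, Psmb6 and Psmb7 rose.

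**Figure D2:**
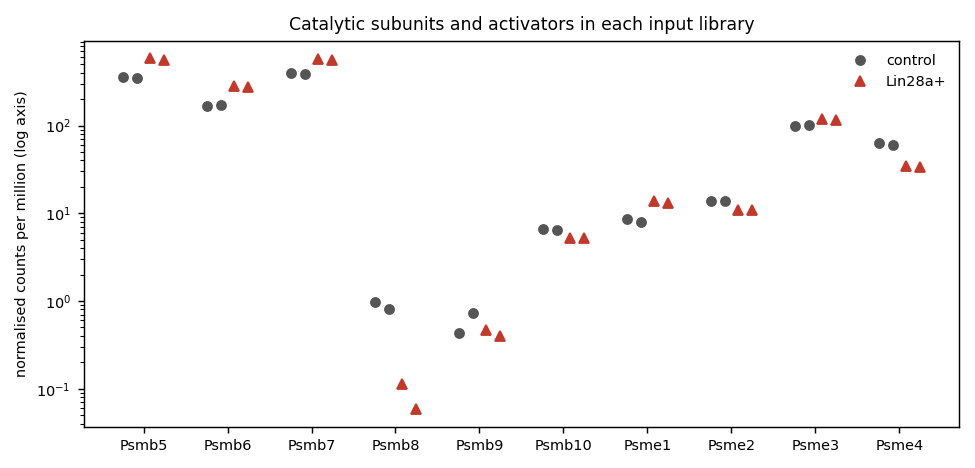
Level of the constitutive catalytic (Psmb5, Psmb6, Psmb7) and inducible (Psmb8, Psmb9, Psmb10) subunits and of the activators in each of the 4 input libraries, in normalised CPM on a log axis (grey circles control, red triangles Lin28a+). Levels are not set per length and are to be compared within a gene. The constitutive subunits, Psme1 and Psme3 are higher in both Lin28a+ libraries, Psmb8, Psmb10, Psme2 and Psme4 are lower in both, and the groups overlap for Psmb9.

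The ATPases form the ring that unfolds substrates and threads them into the core. Of 6, 5 rose and the median was 0.41. Psmc4 rose most, from 86.7 and 84.4 CPM to 124.4 and 117.9 CPM, a difference of 0.50 ± 0.040 (edgeR adjusted p = 0.000208). Psmc6 was at 42.1 and 40.3 CPM in controls and 42.7 and 43.7 CPM in Lin28a+ libraries, so its groups nearly touched, and its difference of 0.07 ± 0.096 did not pass. Psmc2, with 224.6 and 218.3 against 307.9 and 287.9 CPM, and Psmc1, with 160.4 and 164.0 against 197.3 and 194.3 CPM, rose by 1.35-fold and 1.21-fold.

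The other subunits of the 19S particle were mixed, with a median of 0.33 for the non-ATPase base genes and 0.09 for the lid. Of the 3 non-ATPase base genes, Psmd2 and Psmd4 rose and Psmd1 fell. Psmd2, a large scaffold of the base, had 169.3 and 158.3 CPM in controls and 204.2 and 206.5 CPM in Lin28a+ libraries (0.33 ± 0.039). Psmd1, the other large scaffold, had 100.2 and 97.6 CPM against 90.4 and 87.9 CPM. Its groups did not overlap, and the difference of -0.15 ± 0.064 passed narrowly (edgeR adjusted p = 0.0386), but it did not pass without any 1 of the 4 libraries in turn, with an adjusted p of 0.0647 to 0.167, nor with no filter (0.073), total counts (0.0967) or DESeq2 (0.529). Of the 8 lid genes only Psmd13 and Psmd3 rose. Psmd13 went from 48.1 and 47.6 CPM to 78.9 and 76.4 CPM, a 1.62-fold rise (0.70 ± 0.040, edgeR adjusted p = 6.96e-05). Psmd3 went from 126.8 and 129.5 CPM to 184.4 and 180.9 CPM, which is 0.51 ± 0.029. In contrast, Psmd14, the lid's deubiquitinase, had 42.5 and 40.9 CPM against 43.2 and 44.1 CPM (0.07 ± 0.095). Psmd7, its structural partner, had 291.1 and 283.7 CPM against 290.7 and 290.5 CPM, so its libraries overlapped. The lid genes that did not pass lay between -0.07 (Psmd11) and 0.11 (Psmd6). On the rescaled values, whose higher counts can by themselves lower p, Psmd6 passed at 0.12 (edgeR adjusted p = 0.0347) and Psmd12 at 0.10 (0.0455). Psmd12 also passed with total counts at 0.13 (edgeR adjusted p = 0.0383). Neither passed with DESeq2 (adjusted p = 0.663 for Psmd6 and 0.569 for Psmd12).

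The activators went in opposite directions. Psme4 (PA200), a single large subunit that caps the core and is linked to histone degradation, had 63.55 and 60.41 CPM in control libraries and 34.96 and 33.38 CPM in Lin28a+ libraries. The groups were well apart and the difference of -0.85 ± 0.053 was the largest of the 46 in either direction (1.81-fold lower, edgeR adjusted p = 8.85e-05). Psme1 (PA28 alpha) had 8.53 and 7.91 CPM against 13.74 and 13.04 CPM, a difference of 0.71 ± 0.086 (adjusted p = 0.000959 by edgeR and 0.188 by DESeq2). Psme2 (PA28 beta), its partner in the ring, had 13.8 and 13.8 CPM against 10.9 and 10.8 CPM, and its difference of -0.34 ± 0.178 did not pass (edgeR adjusted p = 0.0882). Psme3 (PA28 gamma), the nuclear form, had 98.7 and 101.8 CPM against 120.0 and 115.9 CPM (0.23 ± 0.036). Psmf1, which inhibits the isolated core, had 14.95 and 15.39 CPM against 19.2 and 18.6 CPM, and 0.31 ± 0.151 did not pass (edgeR adjusted p = 0.064). Psme2b has a sequence close to that of Psme2, and reads shared by the copies could have been counted either way.

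The 4 Psmg genes encode chaperones that assemble the core, and all of them rose, whereas Pomp, which helps the core to mature and lies outside the naming rule, did not pass (0.08 ± 0.074, edgeR adjusted p = 0.396). Psmg3 had 27.3 and 25.4 CPM in controls and 46.3 and 46.7 CPM in Lin28a+ libraries, and its difference of 0.82 ± 0.055 was the largest rise of the 46 (1.76-fold, edgeR adjusted p = 0.000113). Psmg1 had 23.3 and 20.6 CPM against 39.4 and 33.5 CPM, a 1.67-fold rise. Psmg2 (0.33) and Psmg4 (0.32) rose by less, and neither passed with DESeq2. Psmg2 did not pass without control library 1 or Lin28a+ library b, nor did Psmg4 without control library 2 or Lin28a+ library b. Of the chaperones of the regulatory particle, Psmd9 (0.43) and Psmd5 (0.21) rose, the latter not without control library 1 or Lin28a+ library b. Psmd10 (gankyrin) had 16.8 and 15.6 CPM against 14.9 and 14.6 CPM, and -0.14 ± 0.159 did not pass. Of the 2 genes for interacting proteins, Psmc3ip, a recombination factor, had 8.20 and 8.37 CPM against 10.3 and 13.9 CPM. Its Lin28a+ libraries differed from each other more than its controls did, and its difference of 0.54 passed with all libraries and without Lin28a+ library a, but not without any 1 of the other libraries. Psme3ip1 had 7.29 and 7.03 CPM against 8.25 and 8.48 CPM and did not pass.

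Most lists of genes that work with the proteasome held both rises and falls, and their counts are to be read beside the 28.1% of all genes that rose and the 28.7% that fell. Of 15 proteasome-associated genes (ubiquitin receptors, shuttles, deubiquitinases and Pomp), 3 rose, 4 fell and the median was 0.08, close to those shares. Adrm1, a ubiquitin receptor of the base, rose by 0.41 and Zfand5 fell by 0.61 on the log2 scale. Of the 5 ubiquitin and E1 genes reported here, 4 rose. Ubb, which encodes a chain of ubiquitin units, was 1.54-fold higher and Uba1, the main E1 enzyme, was 1.27-fold higher, whereas Uba6, the other E1 enzyme, fell by 0.60. Of 9 genes for p97 and its cofactors, 2 rose and 3 fell, among them Vcp, p97 itself, by 0.22. Of 10 ubiquitin ligases studied in muscle, 3 rose and 4 fell. The atrophy-linked ligases differed, since Fbxo32 fell by 0.65 and Trim63 did not pass.

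The factors that drive proteasome transcription were mostly lower. Of 8 genes for these factors and their processing, 7 fell, beside 28.7% of all genes, and 1 rose. Nfe2l1, the main activator of subunit genes, fell by 0.81 (SE 0.040, edgeR adjusted p = 4.53e-05), Nfe2l2 by 0.64, and Ddi2, the protease that releases Nfe2l1, by 0.40. Psme4 fell as they did. Psmd1 did too, but did not pass with no filter, total counts or DESeq2. In contrast, 31 of the 46 proteasome genes rose. Keap1, which holds Nfe2l2 inactive, rose by 0.36. Of 10 tested genes for MHC class I antigen processing and interferon response, 4 fell and 1, H2-D1, rose, and 3 of the listed interferon genes had no row.

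The promoters were searched for elements known from this family and its regulation. RefSeq promoters of build GRCm38.p6, 250 bases before to 50 after the gene start, were found for 39 of the 46 tested genes. The core of the antioxidant response element, TGACNNNGC on either strand, lay in 6 of the 39 (15.4%) and in 16.6% of the promoters of all tested genes, so it was about as frequent as elsewhere. The genes holding it were Psmb5, Psmb6 and Psmd9, whose RNA rose, Psmc6 and Psmd12, whose RNA did not pass (0.07 and 0.10), and Psme4, whose RNA fell. Their windows show the match in capitals and up to 10 bases on either side within the promoter, on the strand of the gene.
Psmb5, chr14:54618024-54618052, minus strand: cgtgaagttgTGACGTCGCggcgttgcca
Psmb6, chr11:70525338-70525366, plus strand: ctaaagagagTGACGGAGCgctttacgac
Psmd9, chr5:123228149-123228177, plus strand: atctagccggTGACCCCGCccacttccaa
Psmc6, chr14:45329587-45329615, plus strand, reverse match: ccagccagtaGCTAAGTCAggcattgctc
Psmd12, chr11:107479278-107479299, plus strand, reverse match: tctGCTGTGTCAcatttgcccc
Psme4, chr11:30771758-30771786, plus strand, reverse match: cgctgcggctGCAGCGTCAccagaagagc

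The same search found the NF-Y box, CCAAT on either strand, in 14 of the 39 promoters (35.9%) and in 43.8% of those of all tested genes. An interferon-stimulated element, GAAANNGAAA on either strand, lay in 5 of the 39 (12.8%) and in 3.24% of those of all tested genes. The 5 were Psmb3, Psmd4, Psmd9, Psme1 and Psmg4, all with more RNA in Lin28a+ cells. The window of Psme1, an interferon-induced gene in many tissues, is shown as an example.
Psme1, chr14:55578493-55578522, plus strand, reverse match: cgagctgtgcTTTCGCTTTCccttcccgct

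A letter match is no evidence of binding, and no test was made of these shares.

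The m6A-RIP table held at least 1 row for 35 of the 46 genes (76.1%, Wilson 95% interval 62.1 to 86.1, counting error only), beside 66.5% of all genes tested in the input and 73.0% of those in the same range of input level. All 6 ATPases, 6 of 7 constitutive beta genes and 5 of 7 alpha genes were among them. Relative to their RNA, proteasome transcripts were not rich in m6A-RIP counts. This ratio sets the counts in a gene's listed rows against its input count over the whole gene. It therefore also depends on which rows were listed, and is no measure of the level of methylation. In control cells the median log2 ratio of m6A-RIP to input level was -0.18 for the 35 genes and 0.63 for all 8063 genes in both tables, and 11 of the 35 lay at or above the median of all genes.

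The m6A-RIP counts mostly followed the RNA. Of the 35 genes, 20 rose, beside 32.5% of all 9416 genes tested, and 3 fell, beside 33.8%. The median difference was 0.27 and that of all genes 0.01. In 30 of 35 genes the m6A-RIP and RNA differences had the same sign, 19 genes rose in both and Psme4 fell in both. The m6A and RNA differences correlated across these genes at 0.73 (Pearson's r, n = 35 genes that share the same libraries) and at 0.81 without Psmb3. The same count and correlation were not computed over all genes. Whether this agreement is particular to the family is thus not known, and the paper reports a positive correlation of m6A abundance with RNA level in MuSCs. Psmb6 had 36.8 and 37.6 CPM in controls and 62.3 and 56.2 CPM in Lin28a+ m6A-RIP libraries (0.67 ± 0.072), close to its RNA difference. Psmd3 rose from 191.2 and 187.3 to 284.5 and 287.6 CPM (0.60 ± 0.040). Psme4 fell from 20.9 and 19.7 to 12.96 and 11.40 CPM (-0.74 ± 0.124). Psmd11, a lid gene, had 2.37 and 3.12 CPM against 1.65 and 1.73 CPM, and its fall of 0.68 passed (edgeR adjusted p = 0.0431) but not without control library 2, without either Lin28a+ library or with DESeq2 (0.132). With DESeq2 18 rose and 2 fell, beside 2770 and 2949 of all 9416 genes, and the rises lost were those of Psma3 and Psmd5. Tested row by row, 41 of their 63 rows passed, 39 of them higher. Of all 18881 rows 61.8% passed, 5665 higher and 6005 lower. With scaling by total counts, which moves the median of all genes to -0.09, 15 of the 35 rose and 4 fell, and of all genes 2395 rose and 3766 fell, against 3060 and 3179.

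**Figure D3:**
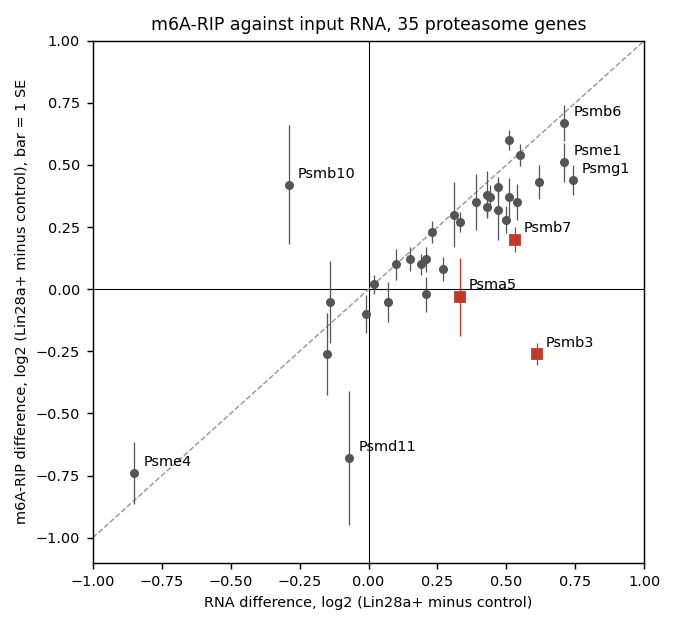
Difference in m6A-RIP counts (vertical axis, bars 1 standard error) against difference in input RNA (horizontal axis) between Lin28a+ and control MuSCs, both in log2 units, for the 35 proteasome genes in both tables. The dashed line marks equal change. Red squares are the genes whose m6A-RIP difference was lower than their RNA difference with an adjusted p under 0.05, and Psmb3 lies farthest below the line.

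The next comparison asked which genes gained or lost m6A-RIP counts relative to their RNA. In the model of both assays no proteasome gene rose relative to input and 3 of 35 fell, beside 3.06% of all 8063 genes that rose and 4.13% that fell. The estimates were below 0 in 31 of the 35, with a median of -0.10 beside -0.03 for all genes. Psmb3, a structural beta subunit next to the catalytic ones, had 269.7 and 279.2 CPM in the control inputs and 421.0 and 415.0 CPM in the Lin28a+ inputs, while its m6A-RIP level went from 240.1 and 248.4 to 209.7 and 199.0 CPM. Its RNA was thus higher and its m6A-RIP level lower in both Lin28a+ libraries. The m6A difference relative to input was -0.88 ± 0.052 (edgeR adjusted p = 3.01e-06) and stayed between -0.92 and -0.84 under every alternative run. Psmb7 differed by -0.34 ± 0.054 (adjusted p = 0.00303 by edgeR), since its m6A-RIP level rose from 79.9 and 82.3 to 96.2 and 90.7 CPM, less than its RNA. Psma5 differed by -0.39 ± 0.096 (adjusted p = 0.0336 by edgeR), on only 9.83 and 8.95 against 10.0 and 8.50 CPM in m6A-RIP, and did not pass in 6 of the 8 fits that left out 1 library, with values of -0.27 to -0.41 there. Without Lin28a+ m6A-RIP library a, Psmb2 and Psmc4 passed as well.

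The fall of Psmb3 came from 1 of its 2 rows, each of which the authors annotated to a transcript. The row of ENSMUST00000129197.1 went from 166.0 and 175.9 to 93.7 and 85.3 CPM (-0.88 ± 0.059), and that of ENSMUST00000138265.1 from 74.1 and 72.5 to 116.0 and 113.6 CPM (0.70 ± 0.054). The order of the rows was thus the opposite in the groups. A test of unequal change between the rows of a gene, chosen after seeing the data, gave adjusted p = 1.01e-09 for Psmb3 (edgeR's diffSpliceDGE). It passed for 3 of the 17 proteasome genes with 2 or more rows, beside 19.2% of all 4901 such genes. The others were Psmd4, the ubiquitin receptor of the base (adjusted p = 0.000139, edgeR), and Psma6 (0.0288). In Psma6 the row that departed held only 3.25 and 2.17 against 1.78 and 2.50 CPM. That row did not pass the test of single rows (edgeR adjusted p = 0.0637). In Psmd4, the row of ENSMUST00000147960.1 rose from 138.7 and 131.9 to 183.5 and 175.6 CPM and that of ENSMUST00000107237.7 had 31.5 and 31.2 against 27.5 and 28.3 CPM. The m6A table gives no row for the unprecipitated RNA of a transcript, so a change in m6A and a change in transcript use cannot be told apart.

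**Figure D4:**
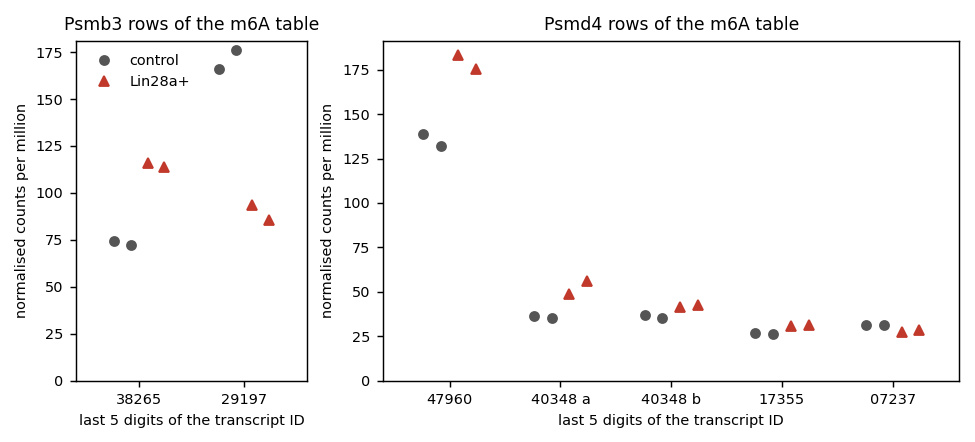
Normalised CPM in each m6A-RIP library for the 2 Psmb3 rows and the 5 Psmd4 rows (grey circles control, red triangles Lin28a+), named by the last digits of the annotated transcript, with a and b for 2 rows of 1 transcript. The Psmb3 row of ENSMUST00000129197.1 is lower in both Lin28a+ libraries and the other row higher in both.

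Lin28a-RIP peaks fell on proteasome genes about as often as on other genes, and Igf2bp3-RIP peaks on a smaller share. The Lin28a-RIP table listed 11 of the 46 (23.9%, Wilson 95% interval 13.9 to 37.9), beside 25.7% of all genes tested in the input and 29.05% of those in the same range of input level. The Igf2bp3-RIP table listed 8 (17.4%, 9.09 to 30.7), beside 33.3% of all genes, and beside 37.4% of the genes in the same range of input level. No alpha or beta subunit had a Lin28a-RIP peak, and Psmb2 alone of the core had an Igf2bp3-RIP peak. In contrast, 8 of the 17 genes of the 19S particle had Lin28a-RIP peaks, which were Psmc1, Psmc2, Psmc6, Psmd1, Psmd2, Psmd3, Psmd12 and Psmd13. Peaks annotated to Psmg1 and Psmg2 lay outside these genes, within Brwd1 and Ptpn2 of the RefSeq table, and without them 9 and 6 genes are left. There was no Lin28a-RIP library from control cells, and these values have no background to be set against.

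Psme4 carried the most peaks, 28 in Lin28a-RIP (7749 bases in all) and 19 in Igf2bp3-RIP (4889 bases), along its gene at chr11:30771775-30881150 of GRCm38.p6. All 19 Igf2bp3-RIP peaks overlapped a Lin28a-RIP peak by at least 1 base. At 28 or more, 2.61% of the 3493 genes in the Lin28a-RIP table had as many. Psme4 is a long gene with many exons, and the peaks could not be assigned to exons here. Its peaks summed to 659.3 and 668.9 CPM in the Lin28a-RIP libraries against a mean input level of 34.2 CPM in Lin28a+ cells, a log2 ratio of 4.28 that was higher than in 82.9% of the 3054 genes with both values. This ratio sums many peaks of a long gene and is set against an input level that was itself lower in Lin28a+ cells. The part of either in the ratio was not tested.

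Psmd2 had 10 Lin28a-RIP peaks along the whole gene, summing to 916.3 and 875.9 CPM (log2 ratio to input 2.13), and no Igf2bp3-RIP peak. Psmd1 had 10 Lin28a-RIP peaks (461.8 and 458.9 CPM, log2 ratio 2.37), 4 of them overlapping its 4 Igf2bp3-RIP peaks. Psmd12, a lid scaffold gene, had 6 Lin28a-RIP peaks (266.6 and 260.9 CPM, log2 ratio 0.92), 4 of them overlapping its 4 Igf2bp3-RIP peaks. Both Lin28a-RIP libraries gave nearly the same level for each gene. Psmc6 had 2 peaks (73.3 and 80.7 CPM) and Psmd13 had 2 (59.7 and 58.2 CPM), while Psmc1, Psmc2 and Psmd3 had 1 each, at 24.1 to 33.8 CPM and log2 ratios of -3.24 to -2.75, among the lowest 3.5% of listed genes. In all, 30 of the 34 Igf2bp3-RIP peaks of the family overlapped a Lin28a-RIP peak (88.2%, against 60.4% of all 19465 Igf2bp3-RIP peaks), and 30 of the 66 Lin28a-RIP peaks met one from Igf2bp3-RIP (45.5%, against 52.4% of all 21616). Since 19 of these 30 lie in Psme4, the family's share rests largely on that gene.

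**Figure D5:**
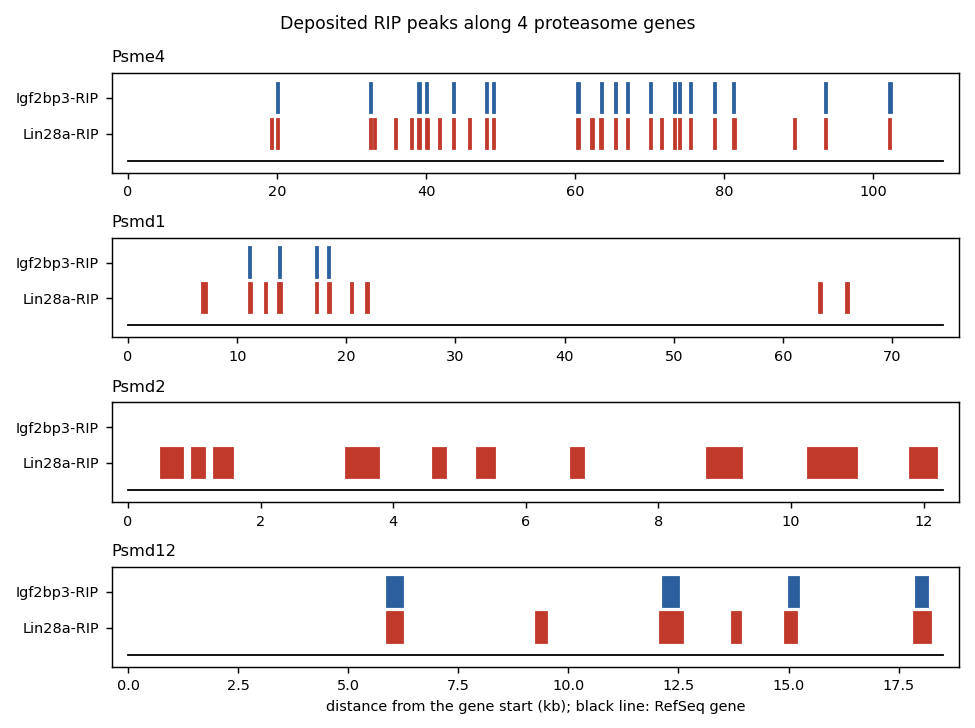
Position of the deposited Lin28a-RIP (red) and Igf2bp3-RIP (blue) peaks along Psme4, Psmd1, Psmd2 and Psmd12, in kilobases from the RefSeq gene start in the direction of transcription, with the gene as a black line and very narrow peaks widened to be visible. Each Igf2bp3-RIP peak of the 4 genes sits on a Lin28a-RIP peak, and Psmd2 has only Lin28a-RIP peaks.

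The RNA difference of the 9 genes with a Lin28a-RIP peak inside the gene had a median of 0.27, with 5 higher, 2 lower and 2 not past the test. The 37 others had a median of 0.39, with 26 higher and none lower. Both genes that fell, Psme4 and Psmd1, were thus among the 9, but Psmd1 did not pass with no filter, total counts or DESeq2. Among all tested genes, the 2903 listed in Lin28a-RIP had a median of -0.20, with 596 higher and 1233 lower. These were taken wherever their peaks lay, and the genes not listed were not summarised. No test was made of these differences.

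None of the 34 Igf2bp3-RIP peaks passed the test between Lin28a+ and control cells (edgeR's quasi-likelihood test, 0 at an unadjusted p under 0.05, and DESeq2), beside 0.123% of all 19465 peaks (24 called, and 1017 at an unadjusted p under 0.05). The summed Psme4 peaks had 568.0 and 572.4 CPM in controls and 524.0 and 467.8 CPM in Lin28a+ libraries, so both Lin28a+ values lay below both controls. Relative to input the difference of Psme4 was 0.42 ± 0.162 and did not pass (edgeR adjusted p = 0.183). The other 7 genes lay below 0, from -1.31 (Psmd13) to -0.31 (Psme3), with adjusted p of 0.0871 to 0.562 by edgeR. Among them, Psmg1 (-1.24, with the 0.0871) and Psmg2 (-0.67) have their peaks within Brwd1 and Ptpn2. Their values thus set counts from another gene against their own RNA. None of the 8 genes thus passed relative to input, beside 1.08% of all 3974 genes. An unadjusted p under 0.05 was found for 3, Psmg1 among them, and for 959 of all genes. Psme3 had 3 peaks summing to 141.1 and 188.4 against 174.5 and 195.7 CPM, and Psmb2 had 1 peak with 47.3 and 25.2 against 40.31 and 19.01 CPM. For Psmb2 the libraries of a group differed by more than the group means, but within each replicate number the Lin28a+ value was the lower. Same-numbered libraries of this assay deviated together (r = 0.703 across peaks). With the number as a block, 766 of all peaks were higher and 1222 lower, and 0 of the 34 passed. In data simulated with the spread of the fit without a block, and with no such shared deviation, no peak changed 1.5-fold was called. Changes of that size would thus have been missed by the test without a block.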

How the data were processed

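Per the labels and the paper's methods, the authors trimmed reads, aligned them with HISAT2 (version 2.0.4) and used DESeq2 and MACS2. The paper names GRCh38, and the submitters' processing notes also mm10. The deposited coordinates fit mouse genes of GRCm38. The authors deposited estimated counts per gene for the input libraries (25 of 49 members, and 45.6% of all genes, hold whole multiples of a fraction within a tolerance of 0.01) and counts per annotated row or peak for the RIP libraries. The counter and its treatment of shared reads and of strand are not given in the sources used here.

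Estimated counts were rounded. Each comparison was fitted over the whole table with edgeR's quasi-likelihood test (version 4.0.16, R 4.3.3; filterByExpr, TMM within an assay, Benjamini-Hochberg). m6A-RIP rows were summed per gene. RIP relative to input is the interaction of cell group and assay. CPM are scaled to the TMM library size, and to the total for Lin28a-RIP. edgeR bounds p by a Poisson test, and where this applied in RNA (18 of 46 members and 50.3% of all 11317 genes tested) the SE is that of the bound. There p reflects counting error and not the spread between libraries. Members were named by a rule: the highest and lowest RNA difference of each class, the catalytic and inducible subunits, the activators, the most significant m6A changes relative to input, and genes with RIP peaks. The members and lists were chosen with earlier results of these data known, and 1 gene of the ubiquitin and E1 list is not reported here. On simulated data, 1.5-fold changes were called for 59.1% of changed genes in RNA (11134 genes), 92% in m6A-RIP (9416), 49.5% in m6A relative to input (8063) and 0.5% in Igf2bp3-RIP relative to input (3974). Alternatives were other scalings, filters and tests, leaving out each library, a replicate block, unsummed rows, summed peaks and unrounded or rescaled values. Lin28a itself was not analysed here.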

Additional observations from a re-analysis of the deposited data

How the results depend on the processing

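In the RNA comparison the 31 genes that rose became 23 with DESeq2, 34 with total counts (adding Psma3, Psmd12 and Psmf1) and 34 with the values rescaled to whole numbers (chosen after seeing the data, adding Psmd6, Psmd12 and Psme3ip1), and 31 with DESeq2's size factors, with no filter, with at least 10 counts in every library and without rounding. Leaving out 1 library gave 27 to 31. The 2 that fell became 1 with total counts, with DESeq2 and without any 1 library, which left Psme4. With no filter they were Psme4 and Psmb8, and Psmd1 did not pass (adjusted p = 0.073, edgeR). They became 4 on the rescaled values (Psmb8, Psmb10, Psmd1 and Psme4), where the higher counts can by themselves lower p. Psmd8 and Psmd7, close to 0 throughout, changed sign: Psmd8 to 0.02 with total counts, 0.01 with no filter and 0.00 with DESeq2, and Psmd7 to -0.01 with at least 10 counts in every library. With 1 library left out, Psmd8 ranged from -0.04 to 0.02 and Psmd7 from 0.00 to 0.03. Over all genes DESeq2 called 1545 higher and 1517 lower, against 3184 and 3248. In m6A-RIP, 20 genes rose and 3 fell. Tested row by row, 41 of 63 rows passed, 39 of them higher. With 1 library left out, 17 to 21 rose and 2 to 4 fell. Relative to input, the 3 that fell became 2 to 5 with 1 library left out. The cause of these differences was not tested.

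In the m6A-RIP table both Lin28a+ columns carry the same number, so no fit with a replicate block was made there. With the numbers in the column names of the input table as a replicate block, 31 genes rose and 2 fell, and no member changed its call (r = 0.118 between same-numbered deviations across genes). With the replicate number as a block, 0 Igf2bp3-RIP peaks of proteasome genes passed, as without it, while over all peaks 766 were higher and 1222 lower, against 12 and 12. Same-numbered Igf2bp3-RIP libraries deviated together (r = 0.703 across peaks), and the labels do not say what the number marks. Relative to input, 0 of 8 genes passed with all libraries and 0 to 1 with 1 left out. The 1 was Psmg1, without Lin28a+ Igf2bp3-RIP library 1 or 2, and its peak lies in Brwd1. Over all genes, total counts turned 14 higher and 29 lower into 31 and 13. With at least 100 counts in every library, 11 members had a Lin28a-RIP peak (25.35% of all genes did) and 7 an Igf2bp3-RIP peak (28.75% of all genes, against 33.25%).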
